A study of Mus musculus and Bos taurus with 6 samples.

Results

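The guide strands of the miR-17/92 and miR-106b/25 clusters, with miR-106a-5p of the related miR-106a-363 cluster, were followed in small RNA libraries of the lactating mammary gland. The 10 miRNA were taken by name and arm: miR-17-5p, miR-18a-5p, miR-20a-5p, miR-106a-5p, miR-106b-5p and miR-93-5p from the 5′ arm, and miR-19a-3p, miR-19b-3p, miR-92a-3p and miR-25-3p from the 3′ arm. All 10 were found among the 1750 lines counted in mouse and among the 1539 lines counted in bovine. The mouse group holds 2 libraries of total RNA from abdominal glands of primiparous FVB/N mice at day 12 of lactation. The AGO2 group holds 2 libraries of RNA that was co-immunoprecipitated from such glands with an antibody against Argonaute 2 (AGO2), the protein that carries the guide strand to its targets. The bovine group holds 2 libraries from udder biopsies of multiparous Holstein cows at mid-lactation on a low-forage diet (46% forage, 54% concentrate), each from a pool of 2 cows. All animals were lactating, and no other treatment is named.

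A miRNA hairpin is cut into 2 arms, of which the guide strand is kept by an Argonaute protein and the passenger strand is mostly lost. Nucleotides 2 to 8 of the guide, the seed, pair with the messenger RNA, so that miRNA with the same seed share many targets. The miR-17/92 cluster is a single transcript with several hairpins that promotes growth and survival of cells and is amplified in some tumours. The miR-106b/25 and miR-106a-363 clusters are its paralogs. Known targets are Cdkn1a, an inhibitor of the cell cycle, for the miR-17 seed, and Bcl2l11, which promotes cell death, for the seed of miR-92a and miR-25.

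In the GENCODE annotation of GRCm38.p6, the 6 hairpins of miR-17/92 lie within 836 bases of the plus strand, at chr14:115043671-115044506, in the non-coding host gene Mir17hg, where each overlaps an exon of at least 1 transcript. The 3 hairpins of miR-106b/25 lie within 498 bases of the minus strand, at chr5:138165321-138165818, inside Mcm7, which encodes a helicase subunit that licenses DNA replication. All 3 are intronic in the protein-coding transcripts of Mcm7. The 6 hairpins of miR-106a-363 lie within 875 bases of the minus strand, at chrX:52741693-52742567, outside any annotated host gene. Mature miR-19b-3p and miR-92a-3p can each come from 2 loci, on chromosomes 14 and X, and their counts cannot be assigned to 1 of them.

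The sequences show which members can act on the same sites and which can be mistaken for each other. Below are the 10 mouse sequences as deposited, identical to their RefSeq entries (GRCm38.p6), grouped by seed, with the seed in capitals. The first group has the miR-17 seed:
mmu-miR-17-5p: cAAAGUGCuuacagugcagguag
mmu-miR-20a-5p: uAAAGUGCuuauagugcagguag
mmu-miR-106a-5p: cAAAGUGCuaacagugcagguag
mmu-miR-106b-5p: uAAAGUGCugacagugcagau
mmu-miR-93-5p: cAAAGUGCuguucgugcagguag
The remaining members fall into the seed of miR-18a, that of miR-19 and that shared by miR-92a and miR-25:
mmu-miR-18a-5p: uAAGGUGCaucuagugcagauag
mmu-miR-19a-3p: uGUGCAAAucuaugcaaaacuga
mmu-miR-19b-3p: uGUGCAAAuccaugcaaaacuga
mmu-miR-92a-3p: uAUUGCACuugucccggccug
mmu-miR-25-3p: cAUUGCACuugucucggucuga

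Of the bovine entries, those of miR-19a-3p, miR-19b-3p, miR-20a-5p, miR-106b-5p and miR-25-3p were identical to mouse. Those of miR-17-5p, miR-18a-5p, miR-92a-3p and miR-93-5p differed only in their length at the 3′ end. Bovine miR-106a-5p differed from mouse at 2 positions. It is shown with bovine miR-17-5p and with 2 further bovine guides of the miR-106a-363 cluster, since these stand very close to guides of miR-17/92 (seed in capitals, as deposited):
bta-miR-17-5p: cAAAGUGCuuacagugcagguagu
bta-miR-106a: aAAAGUGCuuacagugcaggua
bta-miR-20b: cAAAGUGCucacagugcaggua
bta-miR-18a: uAAGGUGCaucuagugcagaua
bta-miR-18b: uAAGGUGCaucuagugcaguua
With positions counted from 1 at the 5′ end, bovine miR-106a-5p differs from bovine miR-17-5p over their shared 22 bases by C1A alone. Bovine miR-20b-5p differs from it by U10C alone, and bovine miR-18b-5p differs from miR-18a-5p by A20U alone. In mouse, miR-106a-5p differs from miR-17-5p by U10A alone, while mouse miR-18b-5p is set apart from miR-18a-5p by A18U and A20U. The mismatches the counting allowed are not given in the sources used here, so the split of reads between such neighbours is uncertain.

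The counts summed to 9299807 and 8391916 in mouse libraries 1 and 2, 3909166 and 5041406 in AGO2, and 9402483 and 10613807 in bovine, and levels are given as RPM, the count scaled to 1000000 reads of these totals. The lowest count of a member in any library was 51 and the highest 113667. A count of 0 would allow up to 3 counts, or between 0.283 and 0.767 RPM by library. Without molecular identifiers, this floor reflects counting error alone. All 6 markers of epithelium exceeded 100 RPM in each group, and the marker of liver stayed below 3 RPM in every library. The methods name 2 mice and do not say from which mouse or gland each mouse or AGO2 library came. These groups may therefore share animals, which the main test does not take up, and the SD and tests measure the spread between libraries. With 2 libraries against 2, permutations cannot reach p < 0.05, and the tests rest on the spread estimated across miRNA.

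The guides together took 2.58% and 1.97% of the counts in the mouse libraries, 1.71% and 1.43% in AGO2, and 3.91% and 3.61% in bovine. The 3 groups did not overlap. The miR-17/92 guides summed to 15060 ± 2655 RPM in mouse (mean ± SD, n = 2), 9502 ± 321 in AGO2 and 25886 ± 1223 in bovine. All counts of miR-19b-3p and miR-92a-3p were assigned to miR-17/92. The sums of miR-106b/25 were 7690 ± 1673, 6167 ± 1621 and 11132 ± 664 RPM. The larger cluster thus exceeded the smaller one in all 6 libraries, by 1.91- and 2.03-fold in mouse, 1.33- and 1.85-fold in AGO2, and 2.31- and 2.35-fold in bovine. In whole tissue, fewer cells of a type and less RNA per cell cannot be told apart.

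Summed by seed, the miR-17 seed led in each group, with 17038 ± 3730 RPM in mouse, 11718 ± 1130 in AGO2 and 23220 ± 3227 in bovine (SD, n = 2). The seed of miR-92a and miR-25 came second, with 3517 ± 1182, 2936 ± 1595 and 13552 ± 1275 RPM. The miR-18a seed held 2043 ± 484, 803 ± 621 and 729 ± 149 RPM, and the miR-19 seed 166 ± 97.2, 227 ± 157 and 68.3 ± 3.13 RPM. The weight of the seeds therefore differed by group. The miR-17 seed exceeded that of miR-92a and miR-25 by 4.52- and 5.37-fold in mouse and 3.08- and 6.04-fold in AGO2, but by 2.02- and 1.45-fold in bovine.

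**Figure D1:**
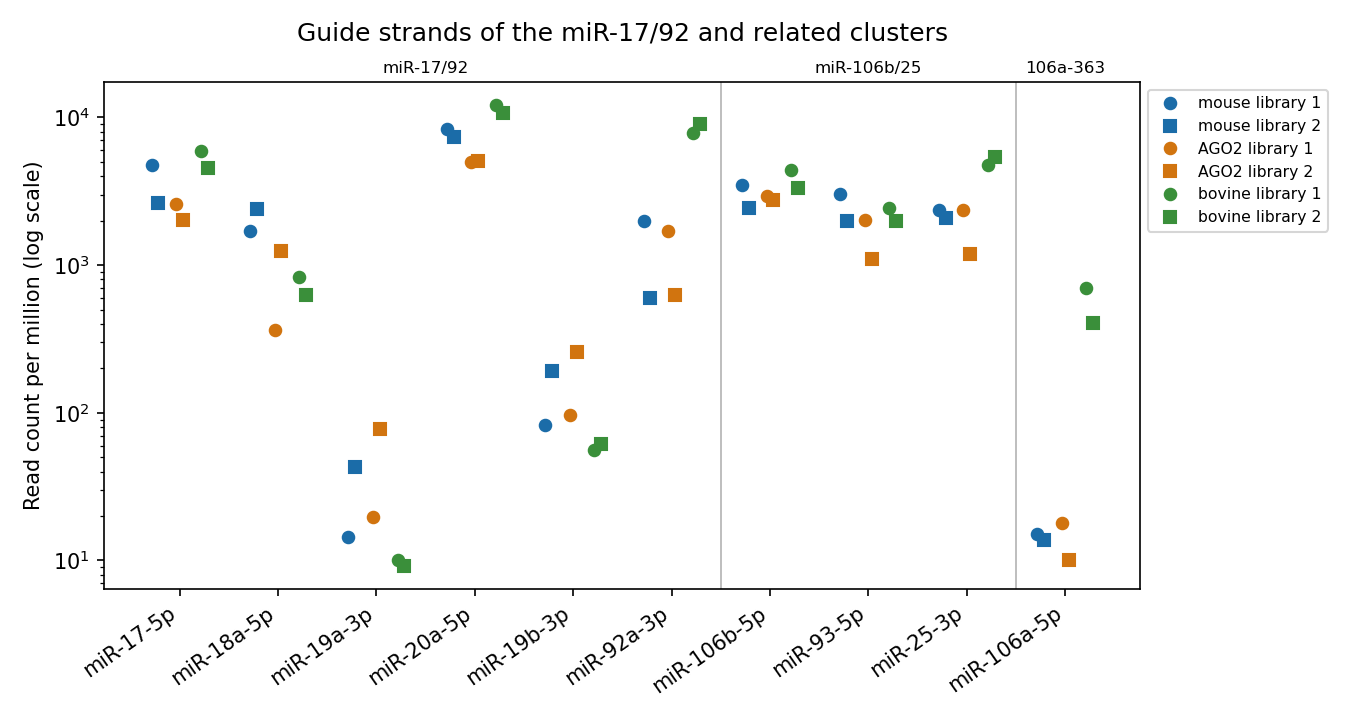
Level of each guide strand (RPM, log scale) in the 6 libraries, with circles for library 1 and squares for library 2 of the mouse, AGO2 and bovine groups. miR-20a-5p was the highest member in every library, miR-19a-3p and miR-19b-3p lay far below the other miR-17/92 guides, and miR-106a-5p reached 699 and 402 RPM only in bovine.

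miR-20a-5p, of the miR-17 seed, had 8384 and 7340 RPM in mouse libraries 1 and 2, 4973 and 5047 in AGO2, and 12089 and 10691 in bovine. It was the most abundant member in all 3 groups, and its 3 groups did not overlap. It stood at rank 31 of all miRNA by mean RPM in mouse, 30 in AGO2 and 25 in bovine.

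miR-17-5p, which gives the seed its name, had 4772 and 2619 RPM in mouse, 2571 and 2024 in AGO2, and 5899 and 4551 in bovine. The AGO2 libraries lay below both mouse libraries, and bovine overlapped mouse. Though miR-17-5p and miR-20a-5p share a transcript and a seed, miR-20a-5p was higher in every library, by between 1.76- and 2.80-fold.

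miR-106b-5p, the first guide of its cluster, had 3482 and 2445 RPM in mouse, 2922 and 2739 in AGO2, and 4393 and 3321 in bovine. miR-93-5p, from the neighbouring hairpin, had 3022 and 1983 RPM in mouse, 2034 and 1099 in AGO2, and 2421 and 1973 in bovine. For both, the libraries of AGO2 and of bovine overlapped those of mouse. miR-106b-5p exceeded miR-93-5p in all 6 libraries, by between 1.15- and 2.49-fold.

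miR-92a-3p, the last guide of miR-17/92, had 1983 and 603 RPM in mouse, 1705 and 626 in AGO2, and 7862 and 9086 in bovine. Its bovine libraries lay far above the rest, while mouse and AGO2 overlapped. miR-25-3p, with the same seed, had 2369 and 2078 RPM in mouse, 2358 and 1182 in AGO2, and 4787 and 5368 in bovine. Here too both bovine libraries were the highest. The order within the seed turned: miR-25-3p exceeded miR-92a-3p by 1.19- to 3.45-fold in the 4 mouse and AGO2 libraries, whereas miR-92a-3p exceeded miR-25-3p by 1.64- and 1.69-fold in bovine.

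miR-18a-5p, whose seed departs from that of miR-17 by a single base, had 1701 and 2386 RPM in mouse, 364 and 1242 in AGO2, and 834 and 623 in bovine. The AGO2 and the bovine libraries each lay below both mouse libraries. miR-17-5p exceeded it by 2.81- and 1.10-fold in mouse, 7.07- and 1.63-fold in AGO2, and 7.07- and 7.30-fold in bovine.

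miR-19b-3p, of the miR-19 seed, had 82.5 and 191 RPM in mouse, 96.2 and 260 in AGO2, and 56.0 and 61.2 in bovine. miR-19a-3p, which differs from it at 1 position, had 14.5 and 42.9 RPM in mouse, 19.7 and 77.8 in AGO2, and 9.997 and 9.23 in bovine. Both were lowest in bovine and overlapped between mouse and AGO2. Although the miR-19 hairpins flank that of miR-20a, miR-20a-5p exceeded miR-19b-3p by 102- and 38.3-fold in mouse, 51.7- and 19.4-fold in AGO2, and 216- and 174.6-fold in bovine. Between the pair, miR-19b-3p exceeded miR-19a-3p by 3.34- to 6.63-fold.

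miR-106a-5p, the X-linked counterpart of miR-17-5p, had 15.2 and 13.8 RPM in mouse, 17.9 and 10.1 in AGO2, and 699 and 402 in bovine. By mean RPM it was the lowest member in mouse and AGO2 and the eighth in bovine.

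Among members next to each other in the order of mean RPM, the 2 libraries of the higher one lay above those of the lower one in 3 of 9 pairs in mouse, 5 of 9 in AGO2 and 7 of 9 in bovine. In mouse, only the steps from miR-20a-5p to miR-17-5p, from miR-92a-3p to miR-19b-3p and from miR-19b-3p to miR-19a-3p did not overlap. From miR-17-5p down to miR-92a-3p, neighbouring mouse members overlapped. In bovine, the overlapping neighbours were miR-17-5p and miR-25-3p, and miR-18a-5p and miR-106a-5p.

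A share within a cluster does not depend on the total of the library. Within miR-17/92, miR-20a-5p took 49.5% and 55.7% of the guide counts in mouse, 51.1% and 54.4% in AGO2, and 45.2% and 42.7% in bovine. It was thus the largest part in each library. miR-17-5p took 28.2% and 19.9% in mouse, 26.4% and 21.8% in AGO2, and 22.1% and 18.2% in bovine, with overlapping groups. miR-92a-3p took 11.7% and 4.57% in mouse, 17.5% and 6.75% in AGO2, and 29.4% and 36.3% in bovine. Its bovine shares lay above all others. miR-18a-5p took 10.04% and 18.1% in mouse, 3.74% and 13.4% in AGO2, and 3.12% and 2.49% in bovine, where it was lowest. miR-19a-3p and miR-19b-3p together stayed the smallest part, with single shares from 0.0369% to 2.80%.

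Within miR-106b/25 the shares were more even. miR-106b-5p took 39.2% and 37.6% in mouse, 39.9% and 54.6% in AGO2, and 37.9% and 31.2% in bovine. miR-93-5p took 34.1% and 30.5% in mouse, 27.8% and 21.9% in AGO2, and 20.9% and 18.5% in bovine, so that the mouse libraries were the highest and the bovine ones the lowest. miR-25-3p took 26.7% and 31.9% in mouse, 32.2% and 23.5% in AGO2, and 41.3% and 50.3% in bovine, above all other libraries. The guide with the seed AUUGCAC therefore held a larger share in bovine than in mouse in both clusters.

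**Figure D2:**
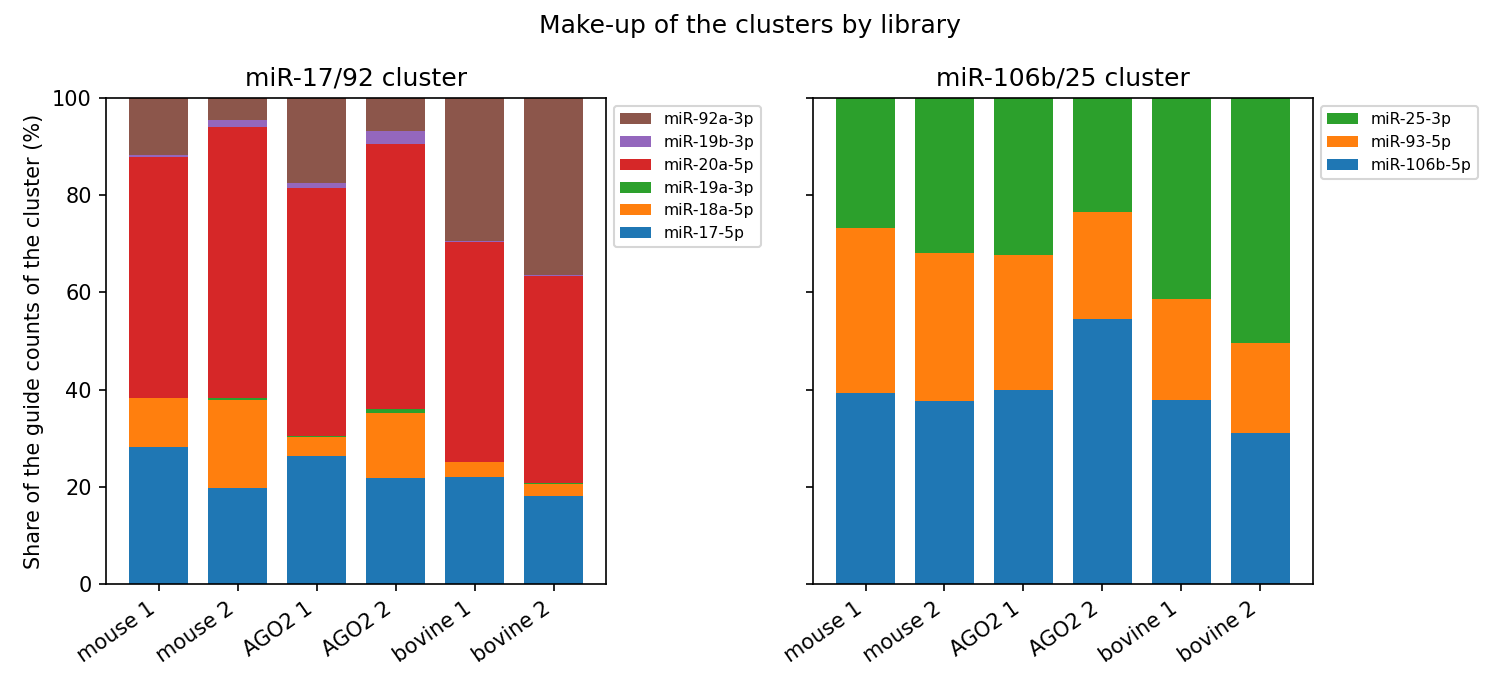
Share of each guide in the summed guide counts of the miR-17/92 cluster (left) and the miR-106b/25 cluster (right), as stacked bars from 0 to 100%, for the 6 libraries. The part of miR-92a-3p reached 29.4% and 36.3% and that of miR-25-3p 41.3% and 50.3% in the bovine libraries, above every mouse and AGO2 library. All counts of miR-92a-3p were assigned to miR-17/92, though some can come from the locus on chromosome X.

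Within mouse and within AGO2, the 2 libraries differed most for members of miR-17/92. From library 1 to library 2 of mouse, the level of miR-92a-3p changed by -1.72 on the log2 scale, that of miR-19a-3p by 1.56 and that of miR-19b-3p by 1.22. In AGO2 the differences were -1.45 for miR-92a-3p, 1.98 for miR-19a-3p, 1.43 for miR-19b-3p and 1.77 for miR-18a-5p. No member differed by over 2-fold between the bovine libraries. This spread was shared by other miRNA: of those at 100 RPM or more in at least 1 library of the group, 44 of 171 differed by over 2-fold in mouse, 46 of 167 in AGO2 and 2 of 172 in bovine. In mouse the difference went with base composition, with a Spearman correlation of -0.51 between the GC content of the mature sequence and the log2 ratio of library 2 to library 1 over the 171 miRNA, which share the 2 libraries. It was -0.12 in AGO2 and -0.11 in bovine. miR-92a-3p has the highest GC content of the mouse members, 57.1%, and miR-19a-3p the lowest, 34.8%. The part of base composition in the differences between libraries was not tested.

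**Figure D3:**
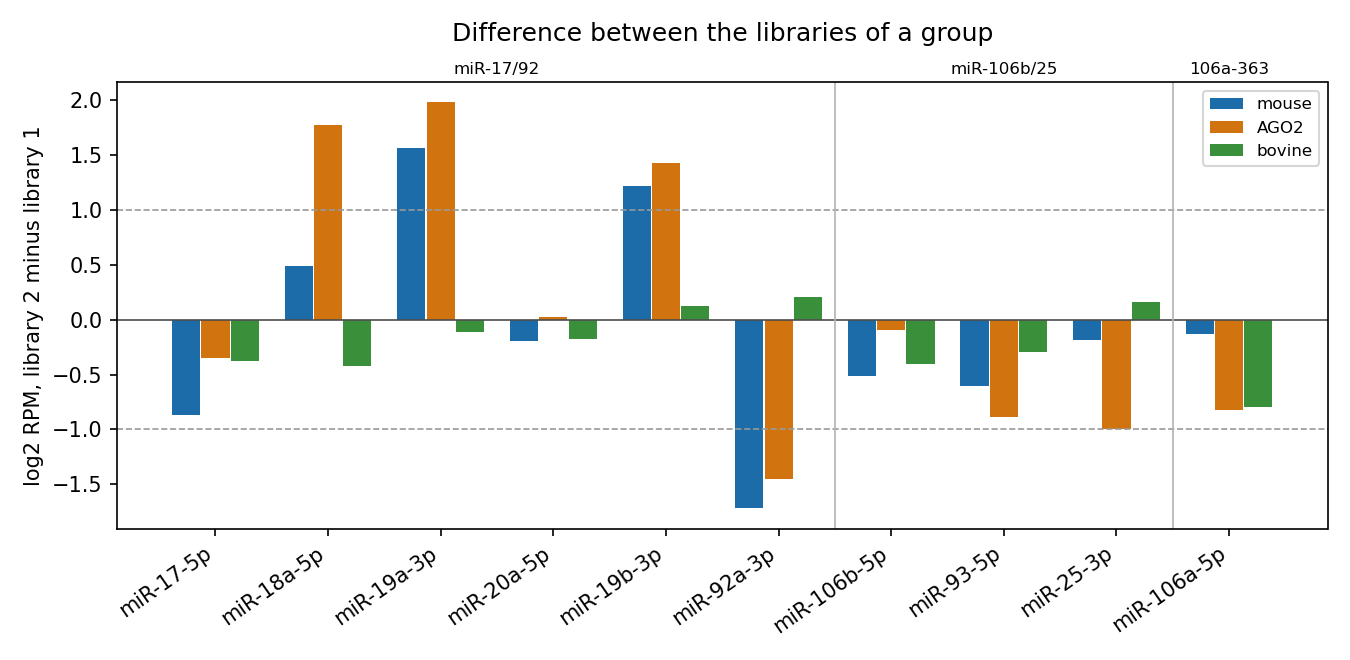
Difference between the libraries of each group for every guide, as log2 RPM of library 2 minus library 1, with dashed lines at a 2-fold difference. miR-92a-3p lay below the lower line and miR-19a-3p and miR-19b-3p above the upper line in both mouse and AGO2, while all bovine bars stayed within the lines.

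Passenger strands were sought for all 10 guides. In mouse, 9 of the 12 names searched were listed. miR-17-3p was the highest of them in mouse, with 193 and 212 RPM, against 184 and 52.0 in AGO2 and 206.01 and 140 in bovine. It made up 3.89% and 7.49% of the sum of both arms in mouse, 6.68% and 2.504% in AGO2, and 3.37% and 2.98% in bovine, with overlapping groups. The passenger of miR-20a-5p was a smaller part, with 0.376% and 0.411% in mouse and 0.690% and 1.02% in AGO2, but reached 1.67% and 2.06% in bovine. Its bovine reads were counted on the human entry. Of the passengers listed in bovine, miR-17-3p alone had a bovine entry, and the rest stood under other species. The passenger of miR-93-5p made up 1.46% and 0.988% in mouse and 3.48% and 4.07% in AGO2. The groups of these last 2 did not overlap, though with 2 libraries each. miR-106b-3p had between 60.2 and 158 RPM and took from 2.40% to 4.50% of both arms. In library 2 of AGO2 and of bovine, at 74.4 and 157 RPM, it exceeded miR-17-3p. The passengers of miR-18a, miR-19b, miR-92a and miR-25 stayed below 14 RPM in all libraries.

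The first comparison asked which miRNA of the gland were found with AGO2. The libraries of precipitated RNA come with no control precipitate, and no library of total RNA can be tied to a precipitate. Counts were tested with edgeR's quasi-likelihood test over the 299 miRNA that exceeded the count threshold of the study in any of the 4 libraries, with Benjamini-Hochberg adjustment. The threshold is worth 18.8 and 20.9 RPM in the mouse and 44.8 and 34.7 RPM in the AGO2 libraries. An adjusted p of 0.05 was passed by 83 miRNA (27.8%), 46 (15.4%) higher and 37 (12.4%) lower. The 299 include miRNA that exceeded the threshold in a single group. Of the 9 guides tested, 0 passed. None of the 9 reached an unadjusted p of 0.05 either, in edgeR or in DESeq2, which called 117 miRNA. miR-106a-5p did not reach the count filter. The median log2 fold change of the 9 guides was -0.19, beside -0.12 over all 299.

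The lowest adjusted p was that of miR-18a-5p, with a log2 fold change of -1.17 ± 0.64 (SE; 95% interval -2.51 to 0.17; adjusted p = 0.169, edgeR). Its AGO2 libraries were both below mouse, yet 3.41-fold apart. The value was -0.19 (adjusted p = 0.881) without AGO2 library 1 and -2.27 (adjusted p = 0.0623) without AGO2 library 2. With the sample numbers of the study as a block, an alternative added after the data were seen, miR-18a-5p passed at -1.43 ± 0.43 (adjusted p = 0.0269, edgeR). Of the 9 guides tested 1 then passed, beside 121 of 299 miRNA, and no source ties a number to a mouse. For miR-20a-5p the log2 fold change was -0.49 ± 0.46 (interval -1.46 to 0.47; adjusted p = 0.406), and for miR-17-5p -0.53 ± 0.53 (-1.64 to 0.58; adjusted p = 0.447). These members, too, had both AGO2 libraries below mouse in RPM. miR-93-5p stood at -0.53 ± 0.56, miR-25-3p at -0.19 ± 0.56, miR-92a-3p at 0.00 ± 0.65 and miR-106b-5p at 0.09 ± 0.52 on the same scale. The miR-19 guides had the largest positive values, 0.93 ± 0.97 for miR-19a-3p and 0.54 ± 0.70 for miR-19b-3p. Each of the 9 intervals includes 0, and each reaches past a 2-fold difference in at least 1 direction, so that a change of that size in that direction is not excluded.

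Of the further guides and passengers fixed for comparison, 6 entered the test. miR-32-5p, which shares the seed of miR-92a and miR-25 but lies outside the clusters, had 29.2 and 66.1 RPM in mouse and 145.3 and 274 in AGO2. It was higher in AGO2, with a log2 fold change of 2.29 ± 0.70 (adjusted p = 0.0187, edgeR). When a library is left out, its group keeps 1 library, which is taken to vary like the pair of the other group. The call was lost without mouse library 1 (1.79), without AGO2 library 2 (1.81) and without the count filter (adjusted p = 0.103). The passengers miR-17-3p, miR-20a-3p, miR-93-3p and miR-106b-3p did not pass, with adjusted p from 0.339 to 0.988 (edgeR). The guide miR-20b-5p entered only through mouse, so no test is given for it.

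Levels in RPM are shares of a library, and miR-200a-3p, an epithelial miRNA, took 75449 and 118479 RPM in mouse but 267861 and 255991 in AGO2. The markers of epithelium did not move together. By mean RPM, miR-141-3p was also higher in AGO2 (33167 in mouse, 75134 in AGO2), whereas miR-200b-3p (26180 and 8769), miR-200c-3p (11508 and 3177) and miR-429-3p (5686 and 3324) were lower, and the libraries of miR-205-5p overlapped. The markers of red blood cells, 4 of 4 listed, summed to between 6522 and 13369 RPM in mouse and between 15557 and 32505 in AGO2. Those of contractile and stromal cells, 4 of 4 listed, summed to between 51990 and 66164 RPM in mouse and 32082 and 33140 in AGO2. This sum was mostly miR-143-3p (56565 and 29482 by mean). miR-199a-5p (282 and 750) was higher in AGO2, and the libraries of miR-145-5p and miR-214-3p overlapped. The part of these cells in the lower sums of the guides in AGO2 was not tested.

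**Figure D4:**
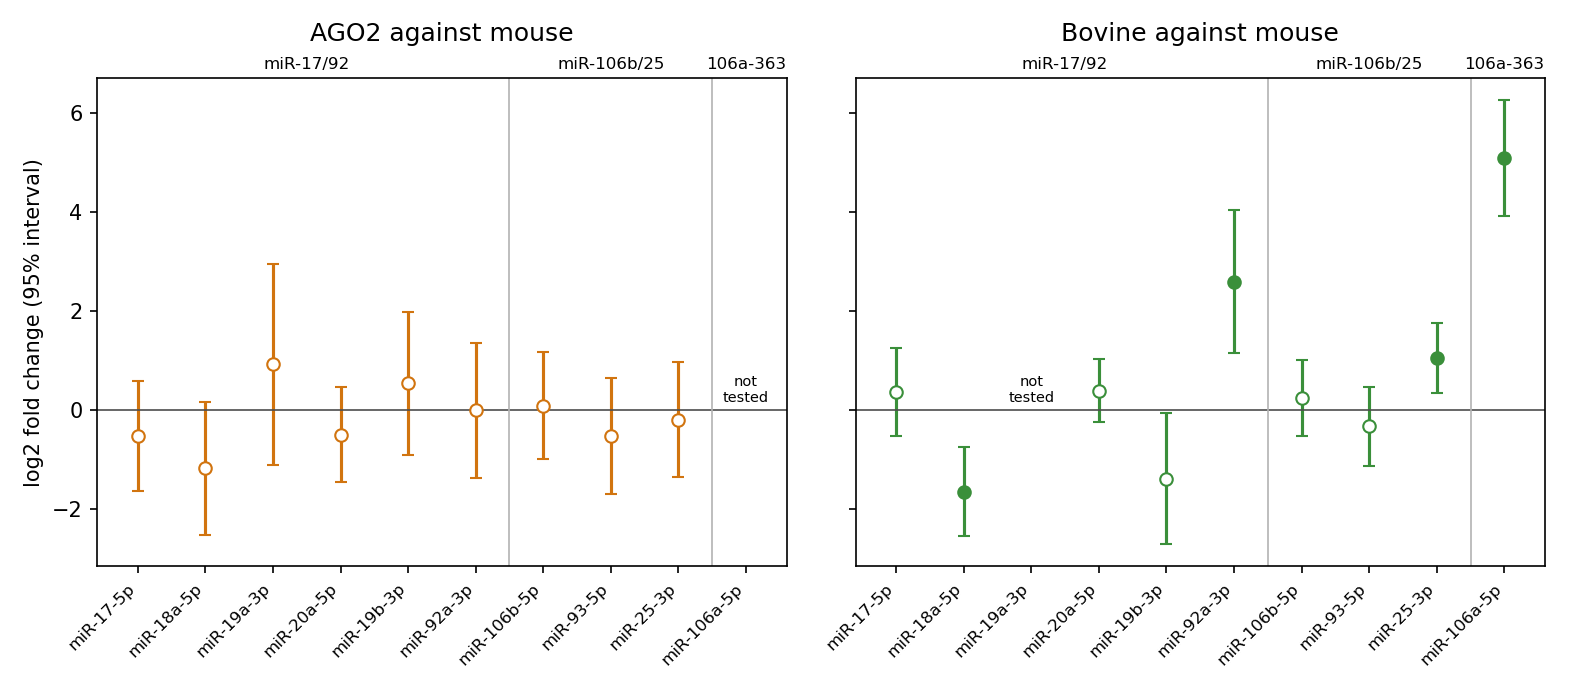
Log2 fold change of each guide with its 95% interval, for AGO2 against mouse (left) and bovine against mouse (right), from edgeR. Filled points passed an adjusted p of 0.05. In AGO2 every interval includes 0, whereas in bovine miR-92a-3p and miR-25-3p were higher and miR-18a-5p was lower. In that comparison miR-106a-5p entered the test only through its bovine level and miR-19b-3p only through its mouse level. No test is given for them, so the filled point of miR-106a-5p and both their intervals are a description.

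The second comparison set the bovine against the mouse gland. It shares the mouse libraries with the first, so the values of both are not independent. Species, RNA kit and the pooling of animals change together and cannot be told apart. Of 229 miRNA with the same name and arm, the test took the 139 that reached 100 RPM in any of the 4 libraries, and 77 (55.4%) passed an adjusted p of 0.05, 41 (29.5%) higher and 36 (25.9%) lower in bovine. Of the 9 guides tested, miR-106a-5p entered only through bovine and miR-19b-3p only through mouse. The other 7 reached 100 RPM in both groups, and of these 2 were higher and 1 was lower, beside 47 called (45.2%), 25 (24.0%) higher and 22 (21.2%) lower, among the 104 miRNA that did so. The median log2 fold change was 0.36 over the 7 guides and 0.23 over the 104 miRNA.

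miR-92a-3p rose by 2.60 ± 0.58 on the log2 scale (SE; 95% interval 1.16 to 4.04; adjusted p = 0.0119, edgeR), a 6.06-fold change, the largest of the miR-17/92 cluster. miR-25-3p, its partner in seed from the other cluster, rose by 1.05 ± 0.28 (0.35 to 1.76; adjusted p = 0.0212), or 2.07-fold. The call of miR-92a-3p was kept under all 12 alternatives, with log2 fold changes from 1.93 to 3.53. That of miR-25-3p was kept in 7 of 12 and lost without bovine library 1 (1.17, adjusted p = 0.240), without bovine library 2 (0.74, adjusted p = 0.496), without the filter (adjusted p = 0.149) and under both other ways of matching the species. miR-106a-5p had the largest log2 fold change, 5.09 ± 0.47, but a member that enters through its high group alone was bound to differ, so no test is given for it, and its bovine sequence lies 1 base from miR-17-5p.

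miR-18a-5p fell by 1.65 ± 0.36 on the log2 scale (interval -2.54 to -0.75; adjusted p = 0.0113, edgeR), the opposite direction to miR-92a-3p. This call was lost without bovine library 1 (-1.82, adjusted p = 0.0983) and without bovine library 2 (-1.67, adjusted p = 0.133). miR-19b-3p was at -1.39 ± 0.53. It entered through mouse library 2 alone, in its high group, so no test is given for it. Its mouse libraries differed by 1.22 on the log2 scale. miR-19a-3p was below the filter, and without a filter its log2 fold change was -2.24 (adjusted p = 0.0211).

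The 4 abundant guides of the miR-17 seed did not pass. miR-17-5p was at 0.36 ± 0.36 (interval -0.53 to 1.26; adjusted p = 0.401), miR-20a-5p at 0.39 ± 0.25 (-0.24 to 1.02; adjusted p = 0.238), miR-106b-5p at 0.24 ± 0.31 (-0.53 to 1.01; adjusted p = 0.509) and miR-93-5p at -0.33 ± 0.32 (-1.12 to 0.47; adjusted p = 0.401, all edgeR). The call changed for miR-17-5p without mouse library 1 (0.71) and for miR-93-5p without mouse library 2 (-0.64). In these fits the spread came from the bovine pair and not from mouse. The signs of miR-17-5p, miR-20a-5p and miR-106b-5p turned without the filter, and those of miR-17-5p and miR-106b-5p also with the table lines and without mouse library 2, so no direction is given for them.

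The scale between the species was itself uncertain. With library totals in place of TMM, the median log2 fold change over all 139 miRNA moved by 0.29, and with the size factors of DESeq2 by -0.19. Setting mouse miR-1a-3p beside bovine miR-1, a single further pair, moved the median by -0.17. With that pair miR-25-3p did not pass (adjusted p = 0.0547, edgeR). miR-92a-3p stayed higher and miR-18a-5p stayed lower under all of these scalings.

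Of the guides that come from the miR-106a-363 cluster and not from miR-17/92, miR-18b-5p had 7.63 and 11.6 RPM in mouse and 251 and 140 in bovine. miR-20b-5p had 21.7 and 26.8 RPM in mouse and 384 and 213 in bovine. Like miR-106a-5p, both entered the test only through bovine, so their levels are a description. miR-363-3p, whose bovine entry starts 1 base later, had 3.33 and 5.24 RPM in mouse and 90.7 and 58.8 in bovine. It reached the filter in no library, and without a filter its log2 fold change was 3.47 (adjusted p = 0.00162, edgeR). miR-92b-3p, of the same seed as miR-92a-3p but another locus, had 8.06 and 3.57 RPM in mouse and 65.9 and 66.3 in bovine, and without a filter stood at 2.90 (adjusted p = 0.00295). miR-32-5p had 29.2 and 66.1 RPM in mouse and 143.4 and 116 in bovine. It too entered the test only through bovine, so no test is given for it. No line for miR-367-3p was found.

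As a share of their close neighbours in sequence, the guides of miR-106a-363 differed by species. miR-106a-5p amounted to 0.318% and 0.528% of miR-17-5p in mouse and to 11.9% and 8.84% in bovine. miR-20b-5p amounted to 0.455% and 1.02% of miR-17-5p in mouse and to 6.50% and 4.67% in bovine. miR-18b-5p amounted to 0.449% and 0.484% of miR-18a-5p in mouse and to 30.1% and 22.4% in bovine. The AGO2 libraries, with 0.696% and 0.4999%, 0.726% and 0.774%, and 2.25% and 0.815% for these ratios in the same order, all lay below bovine, and AGO2 library 1 lay above both mouse libraries for miR-18b-5p over miR-18a-5p. With the counts of miR-17-5p and miR-106a-5p added together, the log2 fold change of the sum in bovine was 0.50 (adjusted p = 0.275), so that the pair as a whole did not pass.

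**Figure D5:**
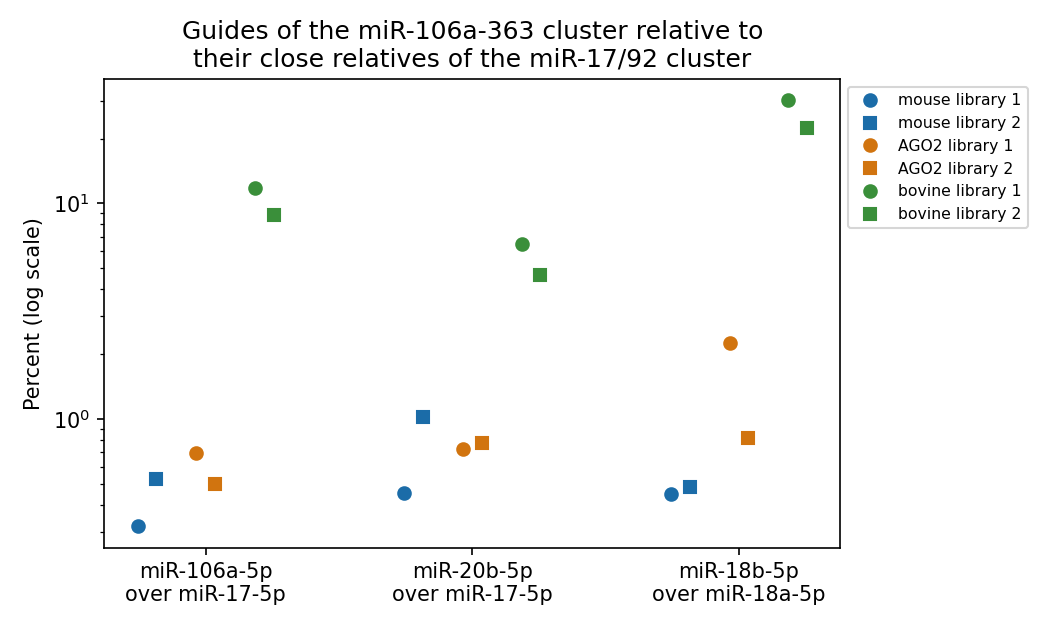
Counts of 3 guides of the miR-106a-363 cluster in percent of the guide of miR-17/92 closest to each in sequence (log scale), for the 6 libraries. The bovine libraries reached 30.1% and 22.4% for miR-18b-5p over miR-18a-5p, and all mouse and AGO2 values lay below 2.3%.

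Marker levels of other cells moved between the species as well. The markers of endothelium, 2 of 2 listed, summed to between 24194 and 34265 RPM in mouse and between 55972 and 62356 in bovine. Those of red blood cells summed to between 6522 and 13369 RPM in mouse and between 1102 and 1716 in bovine, and those of leukocytes, 5 of 5 listed, to between 1263 and 2123 and between 2553 and 3285. By mean RPM, miR-150-5p went from 255 in mouse to 1677 in bovine, whereas miR-142-3p (692 and 285) and miR-223-3p (250.1 and 96.5) were lower in bovine. Those of contractile and stromal cells overlapped, at 51990 to 66164 and 55558 to 70212 RPM. The markers of epithelium, 6 of 6 listed, summed to between 159803 and 188746 RPM in mouse and between 77607 and 79458 in bovine. The largest part in mouse was miR-200a-3p, at 96964 RPM in mouse and 13521 in bovine by mean. By mean, miR-141-3p (33167 and 19959), miR-200b-3p (26180 and 12615) and miR-429-3p (5686 and 868) were also lower in bovine. In contrast, miR-200c-3p (11508 and 27309) and miR-205-5p (771 and 4262) were higher in bovine. The markers of skeletal muscle, 3 of 3 listed, summed to between 163 and 213 RPM in mouse and between 727 and 782 in bovine. Nearly all of it was miR-1a-3p in mouse and miR-1 in bovine, at 183 and 741 RPM by mean, and miR-206-3p was at 0 in mouse library 2. The part of these cells in the differences of the guides was not tested.

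The miRNA most like miR-20a-5p over the 6 libraries were sought among the other matched miRNA at 100 RPM or more in at least 1 library by the root mean square difference of centred log2(RPM + 1) values. The closest was miR-497-5p, at 0.153, with 3524 and 4111 RPM in mouse, 2097 and 2104 in AGO2, and 5896 and 4804 in bovine. It was followed by miR-128-3p (0.227), miR-532-5p (0.265), miR-27b-3p (0.271) and miR-22-3p (0.273). For miR-92a-3p the closest were miR-151-3p (0.388), miR-374b-5p (0.451), miR-139-5p (0.470), miR-205-5p (0.533) and miR-652-3p (0.542), all further away than for miR-20a-5p. miR-205-5p, a marker of epithelium, had 915 and 626 RPM in mouse, 942 and 717 in AGO2, and 4096 and 4427 in bovine. These distances describe 6 libraries and carry no test.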

How the data were processed

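Small RNA libraries were made by poly(A) tailing and sequenced on an Illumina HiSeq. The authors trimmed poly-A stretches, retained inserts between 17 and 28 nt and ran the quantifier of miRDeep2 on miRBase 20 and predicted precursors, and deposited a raw count for each mature miRNA. A 3′ terminal A cannot be told apart from the tail. A deposited column of normalised counts, the counts scaled by library, and the lists of predictions with their score were not used.

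Members, lists and tests were chosen with earlier results of these data known. RPM used the sum over all lines. Counts were tested with edgeR 4.0.16 (TMM, quasi-likelihood F test, Benjamini-Hochberg) in R 4.3.3, for AGO2 above the count threshold of the study and for bovine from 100 RPM in any of 4 libraries. The standard error was the log2 fold change divided by the square root of F, and 95% intervals followed from it. DESeq2 1.42.0 was an alternative, as were its size factors, library totals, a quadratic GC trend taken out and no filter. A further alternative pooled miR-17-5p with miR-106a-5p and miR-20a-5p with miR-20b-5p. The close pairs miR-18a-5p with miR-18b-5p and miR-19a-3p with miR-19b-3p were not pooled. Matching by the lines of the study's supplementary table and each library left out were alternatives too. Setting mouse miR-1a-3p beside bovine miR-1 was added after the data were seen, since an earlier run had included this pair, as was a block by the sample numbers of the study, which follow the order of deposit and of read totals. All members were named, with the relatives, passengers, markers and the 5 nearest miRNA by fixed rules. The procedure was tested on simulated data. Figures were drawn with matplotlib 3.10.9 under Python 3.11.15.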

Additional observations from a re-analysis of the deposited data

How the results depend on the processing

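In AGO2 against mouse, 31 to 62 miRNA passed as higher and 21 (without mouse library 1) to 33 as lower when 1 library was left out, 29 and 34 without a filter, 69 and 48 with DESeq2, and 0 members in each of these settings. Leave-one-out log2 fold changes ran from -0.65 to 1.04 for miR-92a-3p, -0.16 to 0.43 for miR-106b-5p, -0.35 to 1.95 for miR-19a-3p, -0.31 to 1.44 for miR-19b-3p, -0.37 to 0.32 for miR-25-3p, -1.43 to 0.089 for miR-17-3p and -0.36 to 0.42 for miR-106b-3p. The sign of miR-92a-3p turned with DESeq2 (0.13), with its size factors in edgeR (0.13) and with the GC trend taken out (0.053). That of miR-106b-5p turned with library totals (-0.062) and no filter (-0.086), and that of miR-106b-3p with library totals (-0.15), the GC trend taken out (-0.32) and no filter (-0.17). In AGO2 the median over all miRNA moved by -0.15 with library totals and by 0.11 with DESeq2. In bovine against mouse with 1 library left out, 136 to 139 miRNA were tested. Of these, 27 (without bovine library 2) to 57 (without mouse library 1) passed as higher and 19 (without bovine library 1) to 51 as lower. The members among them, 2 to 6 in all, include miR-106a-5p, which entered only through bovine and is given no test. Without bovine library 1 or 2, they were miR-106a-5p and miR-92a-3p alone. The 6, without mouse library 1, also include miR-19b-3p, which entered through mouse library 2 alone. Each fit leaves a group of 1 library, so these counts are a description. Without a filter 55 were higher and 69 lower of 229, and signs turned for miR-106b-5p (-0.24), miR-17-5p (-0.11) and miR-20a-5p (-0.091). With table lines they turned for miR-17-5p (-0.0022) and miR-106b-5p (-0.12). Leaving out 1 library gave -0.031 to 0.37 for miR-106b-5p and -0.048 to 0.71 for miR-17-5p. Over TMM-scaled library sizes of that comparison, the miR-17/92 sum in RPM was 18496 in mouse and 28868 in bovine. The miR-106b/25 sum was 9435 in mouse and 12411 in bovine. In AGO2 the miR-17/92 sum was 10041 over the sizes of the other comparison, another scale, so it cannot be set against 18496. The causes were not tested. The labels give no shared replicate numbers, but the study numbers its samples. With that number as a replicate block, added after the data were seen, 121 of 299 miRNA passed, 60 higher and 61 lower. Of the 9 members tested, 1 (miR-18a-5p, lower) passed, and miR-92a-3p turned to 0.070. On the TMM scale, the differences between libraries 1 and 2 of mouse and of AGO2 had a Spearman correlation of 0.31 over 299 miRNA and the same sign in 7 of 9 members. No source ties a number to a mouse. Precision was limited by 2 libraries per group and not by the counts, of which the lowest of a member was 51.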
